A study of Mus musculus with 23 samples.

Results

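The maternally methylated, paternally hypomethylated promoter of Plagl1 and the intronic differentially methylated region (DMR) of Grb10 were followed through bisulphite sequencing of hybrid mouse embryos. The members are all windows with their midpoint at chr10:13055000-13135000, which holds Plagl1, or at chr11:11925000-12042000, which holds Grb10, by position on GRCm38 and by no measured value. At embryonic day 6.5 (E6.5) these are 16 windows for Plagl1 and 23 for Grb10 of 320494 autosomal windows. At E7.5 they are 17 and 26 of 384346, on another grid of windows. A window is a stretch with a near-constant number of CpGs (median 51 at E7.5 and 59 at E6.5 by the genome sequence), so a CpG island is cut into short windows and the rest of a gene into windows of several kilobases.

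The study examined imprinted regions in embryonic and extra-embryonic tissue and whether they depend on DNA methylation from the oocyte. Epiblast, the source of the embryo proper, and extra-embryonic ectoderm (ExE), a source of the placenta, were profiled by post-bisulphite adaptor tagging (PBAT). The crosses are C57BL6/Babr mothers with CAST/Ei fathers (B6/CAST), the reciprocal cross (CAST/B6), both wild type, and matDKO/CAST. The mothers of matDKO/CAST embryos were of a mixed C57BL6/Babr/129 background, with floxed Dnmt3a and Dnmt3b deleted in the oocyte by Zp3-cre, and the fathers were CAST/Ei, so these embryos received maternal deleted alleles of both methyltransferase genes and kept the paternal alleles. The maternal strain background of matDKO/CAST thus differed from that of B6/CAST along with the genotype, and strain and genotype cannot be told apart. Each E6.5 library came from a pool of 4 epiblasts or of 8 ExE, taken from micrococcal nuclease digested chromatin, and each E7.5 library from 1 embryo. At E6.5, B6/CAST had 3 libraries from epiblast and 2 from ExE, CAST/B6 likewise 3 and 2, and matDKO/CAST 2 and 3. The B6/CAST epiblast values are given as replicates 1 and 3 and then a library that the deposited table numbers 2, while the labels of that group are numbered 1, 3 and 4, so it was used as a library of the group without a matched label. At E7.5 there were 2 libraries for each tissue of B6/CAST and of CAST/B6. Only for these were separate values of the maternal and the paternal allele available. Whether the E6.5 pools were independent of each other in every case is not given, so p-values measure the spread between these libraries.

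Genomic imprinting marks the parental alleles of a gene with DNA methylation laid down in the egg or the sperm, and the marked stretch stays methylated on that allele when most of the genome is reprogrammed after fertilisation. Plagl1 (also Zac1) encodes a zinc finger transcription factor that restrains proliferation and regulates other imprinted genes. Its promoter island is methylated in the oocyte, and the gene is transcribed from the paternal allele. Grb10 encodes an adaptor protein that dampens signalling by the insulin and insulin-like growth factor receptors and restricts fetal and placental growth. Its main promoter island is unmethylated on both alleles and drives maternal expression in most tissues, while alternative promoters at an intronic island, the maternally methylated DMR, drive paternal expression in neurons. ZFP57, a zinc finger protein that keeps imprints methylated, binds the methylated hexamer TGCCGC.

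The stretches at which the alleles separated, or did not, are shown here from GRCm38, 5′ to 3′ in the direction of transcription of the gene, with every CpG in capitals. The first 3 are RefSeq promoters, from 250 bases before to 50 bases after an annotated start, and the last is the end of the shortest window of the Grb10 DMR.
Plagl1 promoter in the DMR, plus strand, chr10:13090582-13090881: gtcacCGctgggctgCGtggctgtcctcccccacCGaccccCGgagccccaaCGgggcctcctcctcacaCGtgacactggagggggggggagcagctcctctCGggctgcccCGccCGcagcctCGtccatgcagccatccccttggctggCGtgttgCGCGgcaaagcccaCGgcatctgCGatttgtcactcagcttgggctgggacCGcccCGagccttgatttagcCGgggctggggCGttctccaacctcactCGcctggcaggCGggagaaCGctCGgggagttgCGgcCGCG
Grb10 main promoter, minus strand, chr11:12037371-12037670: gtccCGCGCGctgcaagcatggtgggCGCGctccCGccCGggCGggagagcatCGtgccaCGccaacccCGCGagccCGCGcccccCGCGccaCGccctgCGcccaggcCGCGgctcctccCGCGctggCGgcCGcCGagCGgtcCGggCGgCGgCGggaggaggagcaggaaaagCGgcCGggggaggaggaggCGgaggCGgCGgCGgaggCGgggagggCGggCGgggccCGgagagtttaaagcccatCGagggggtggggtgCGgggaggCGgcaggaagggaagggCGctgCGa
Grb10 alternative promoter, minus strand, chr11:12027922-12028221: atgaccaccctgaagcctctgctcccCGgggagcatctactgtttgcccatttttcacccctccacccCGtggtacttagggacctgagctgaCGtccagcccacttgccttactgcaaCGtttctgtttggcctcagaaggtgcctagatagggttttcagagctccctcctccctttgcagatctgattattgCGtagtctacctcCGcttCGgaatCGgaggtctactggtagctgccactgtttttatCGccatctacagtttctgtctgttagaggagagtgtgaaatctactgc
Grb10 DMR just before the start of Grb10-209, minus strand, chr11:12026325-12026499: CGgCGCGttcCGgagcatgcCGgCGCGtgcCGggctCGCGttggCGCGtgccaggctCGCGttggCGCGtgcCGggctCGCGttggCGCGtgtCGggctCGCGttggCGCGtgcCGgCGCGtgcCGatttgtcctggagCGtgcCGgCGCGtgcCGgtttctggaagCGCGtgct
The Plagl1 promoter holds 26 CpGs in 300 bases, the main Grb10 promoter 45 and the alternative Grb10 promoter 9, against a median of 7 over 32851 RefSeq promoters. The 175 bases of the Grb10 DMR hold 37 CpGs, many of them in repeats of the word CGCG. The hexamer TGCCGC, searched on both strands, occurred 1 time in the Plagl1 promoter, 1 time in the main Grb10 promoter and not in the other pair of stretches. It occurred in 11.6% of all RefSeq promoters. By window, the E7.5 Plagl1 DMR held it 2 and 4 times and the Grb10 DMR 3 times and 1 time. Of all E7.5 windows of at most 2000 bp, here called dense, 42.2% held at least 1, 2.64% at least 3 and 0.588% at least 4. The dense windows of the main Grb10 island held it 1, 2, 2 and 0 times. The island that was little methylated on both alleles therefore held the letters as well, and a match is only a description of the sequence.

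Read coverage was not part of the tables, so no counting error can be given and the depth behind each percentage is unknown. Mean methylation over all windows was 71.7 to 75.6% in E7.5 epiblast and 56.1 to 59.2% in E7.5 ExE. At E6.5 it was 63.9 to 78.3% in wild-type epiblast, 50.5 to 64.5% in wild-type ExE, 51.1 to 53.0% in matDKO/CAST epiblast and 37.2 to 39.3% in matDKO/CAST ExE. The matDKO/CAST epiblast replicate 3 had a value in only 72.2% of windows, and single alleles at E7.5 in 75.7 to 90.5%. The tissue labels were checked at the starts of Elf5, a trophoblast transcription factor, and Pou5f1, a pluripotency factor. At E7.5 the Elf5 window was methylated at 80.4 to 92.6% in epiblast and 60.8 to 69.1% in ExE, and the Pou5f1 window at 11.4 to 25.0% in epiblast and 37.2 to 42.1% in ExE, with no overlap at either. At E6.5 the Elf5 ranges of wild-type epiblast (75.2 to 95.2%) and ExE (69.9 to 85.2%) overlapped, while Pou5f1 did not (1.79 to 10.0% and 15.9 to 77.8%). Nanog, another pluripotency factor, separated the tissues at E7.5 (37.4 to 45.5% in epiblast and 51.6 to 62.6% in ExE). In the E6.5 wild type it overlapped (16.7 to 69.4% and 58 to 81.3%). In matDKO/CAST the Elf5 ranges did not overlap (71.7 to 100% in epiblast and 36.8 to 53.1% in ExE). Pou5f1 overlapped there (0 to 22.8% and 8.70 to 38.3%), and Nanog had 1 epiblast value (27.7%, beside 43.2 to 72.5% in ExE).

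At the Plagl1 promoter the maternal allele was far more methylated than the paternal allele in both tissues, at 83.6 to 97.5% in ExE and 65 to 100% in epiblast against 0 to 11.8%. Plagl1 (ENSMUSG00000019817) spans chr10:13060504-13131694 on the plus strand in GENCODE vM21. Of its 25 annotated transcripts, 21 start in the window at chr10:13090458-13091001 and 1, Plagl1-220, in the next window at chr10:13091003-13091973, which also holds the start of Gm27741 on the opposite strand. Both windows have their midpoint in the promoter peak given for the locus, chr10:13089500-13092500, and overlap annotated exons.

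In ExE the maternal allele of the window at chr10:13091003-13091973 (971 bp, 49 CpGs) was methylated at 83.6 and 96.7% in B6/CAST replicates 1 and 2 and at 95.2 and 93.4% in CAST/B6 replicates 1 and 2. The paternal allele was at 2.61, 11.8, 3.43 and 9.76% in the same libraries. The lowest maternal value lay far above the highest paternal value in both crosses, so the allele followed the parent and not the strain. The mean maternal minus paternal difference was 85.3 ± 4.62 points (SD, n = 4). In limma over 318358 windows with both alleles in all 4 ExE libraries the estimate was 85.3 points with SE 4.02 and adjusted p = 0.027. This was 1 of 16 Plagl1 windows called higher on the maternal allele, against 0.00503% of all windows tested. The exact sign-flip test gave p = 0.125, which is the smallest that 4 libraries allow. The limma call was lost with a mean-dependent, robust variance (adjusted p = 0.122) and when any 1 library was left out (0.395 to 0.523), while the difference itself stayed at 83.3 to 87.4 points.

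In epiblast the same window had both alleles in 2 libraries only. Maternal methylation was 94.8% in B6/CAST replicate 1, 65% in B6/CAST replicate 2 and 92.5% in CAST/B6 replicate 2. Paternal methylation was 0% in B6/CAST replicate 1, 0% in CAST/B6 replicate 1 and 2.78% in CAST/B6 replicate 2. The alleles did not overlap, and the difference was 92.3 ± 3.54 points (SD, n = 2). The shorter window over most Plagl1 starts (544 bp, 47 CpGs) was thinner still. Its maternal allele was measured in 1 ExE library, at 97.5%, and in 3 epiblast libraries, at 80.0, 83.3 and 100%. Its paternal allele was at 10.0, 2.38 and 3.75% in 3 ExE libraries and at 0% in the only epiblast library with a value.

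The windows on each side of the promoter were intermediate, chiefly on the paternal allele. Before the DMR, at chr10:13086357-13090457, maternal methylation in ExE was 84.6, 74.9, 73.3 and 87.9% and paternal methylation 51.5, 53.0, 66.7 and 42.7%, a difference of 26.7 ± 16.4 points (SD, n = 4). In epiblast the maternal values there were 72.5, 66.7, 72.7 and 89.5% and the paternal values 58.0, 35.4, 34.6 and 30%, a difference of 35.8 ± 18.6 points. After the DMR, at chr10:13091974-13098456, which holds no exon, the difference was 35.8 ± 10.0 points in ExE and 29.3 ± 22 points in epiblast. The maternal allele was higher in all 4 libraries of each tissue at both flanks. Neither flank passed the test over all windows (adjusted p = 0.777 in ExE and 0.941 in epiblast at each).

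Beyond the flanks the Plagl1 alleles differed by less. The other 13 complete ExE windows lay between -3.20 and 14.9 points, and the other 12 of epiblast, outside the flanks, between -5.49 and 19.5. The lowest ExE window, chr10:13113085-13117781, differed by -3.20 points and the lowest epiblast window, chr10:13081875-13086356, by -5.49 points. The median of the complete Plagl1 windows was 7.99 points in ExE (n = 16) and 0.656 in epiblast (n = 14), beside -0.0786 and -0.0572 over all windows. The maternal allele was above the paternal one in every library at 7 of 16 Plagl1 windows in ExE and at 4 of 14 in epiblast, against 6.32% and 5.75% of all windows. The reverse held at 0 windows in either tissue, against 6.27% and 6% of all windows. With a mean of at least 30 points as well, 2 of 16 windows met the rule in ExE and 1 of 14 in epiblast, against 0.0242% and 0.018% of all windows.

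The bounds of the Plagl1 DMR were read as runs of neighbouring windows at which the maternal allele was higher in every library by at least 30 points on average. In ExE the run was chr10:13091003-13098456, or 7454 bp. Its left edge is not an edge of the methylation difference, because the promoter window before it had both alleles in 1 library only. In epiblast the rule kept chr10:13086357-13090457 (4101 bp), and with windows measured in at least 2 libraries also chr10:13091003-13091973. At 20 points the windows met by the rule covered 11555 bp in ExE and 10584 bp in epiblast, and at 50 points the ExE region shrank to the 971 bp window. Near-complete separation with values in every ExE library was thus read in the 971 bp window alone, and partial separation in both windows beside the promoter, at the resolution of these windows.

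**Figure D1:**
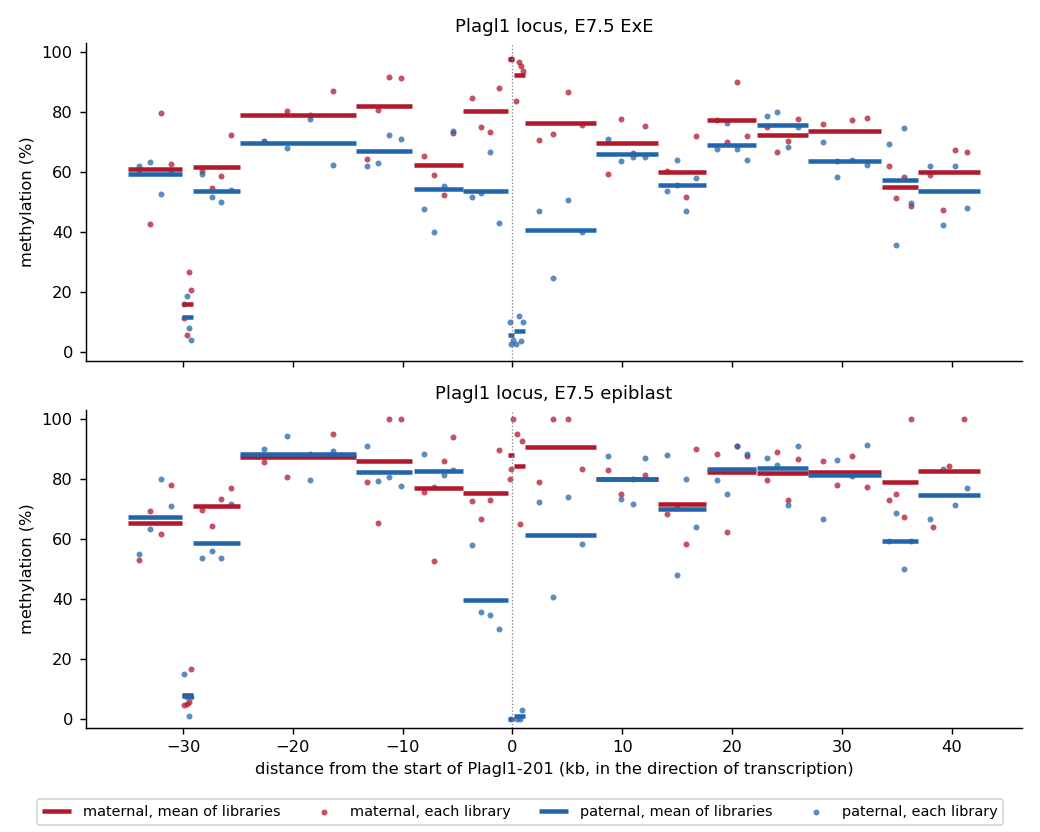
Methylation of the maternal (red) and paternal (blue) allele at E7.5 in windows of the Plagl1 locus, with ExE above and epiblast below, against the distance from the start of Plagl1-201 in kb. Bars span a window at the mean of its libraries and points are single libraries spread across the window. In ExE the alleles separate by 85.3 points at the promoter window and by 26.7 and 35.8 points in the windows on its sides, and the dense window about 30 kb upstream is low on both alleles.

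The intronic DMR of Grb10 showed a like separation in ExE, and both alleles of the main Grb10 promoter were low. Grb10 (ENSMUSG00000020176) spans chr11:11930508-12038683 on the minus strand. Grb10-201 starts at position 12037401 and Grb10-206 at 12038683, within or beside the main island. Grb10-209, Grb10-207 and Grb10-203 start at 12026324, 12026732 and 12027971, at the DMR, downstream of the first exon of Grb10-201.

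In ExE the maternal allele of the window at chr11:12026239-12026499 (261 bp, 49 CpGs), which holds the start of Grb10-209, was methylated at 96.8% in B6/CAST replicate 1, 90% in CAST/B6 replicate 1 and 100% in CAST/B6 replicate 2. The paternal allele was at 0, 10.3, 0 and 0% in B6/CAST replicates 1 and 2 and CAST/B6 replicates 1 and 2. The difference was 95.6 ± 5.11 points (SD, n = 3). In the window next to it, chr11:12025760-12026238, which overlaps an exon of Grb10-209, the maternal values were 90.5 and 80.0% in the B6/CAST libraries and the paternal values 0, 0 and 6.25% in B6/CAST replicate 1 and both CAST/B6 libraries. No maternal value of either window came near a paternal one.

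The next window upstream, chr11:12026503-12030208 (3706 bp), holds the starts of Grb10-207 and Grb10-203 and was complete in ExE. Its maternal allele was at 89.3, 93.2, 100 and 100% and its paternal allele at 9.09, 9.09, 20.8 and 21.9% in B6/CAST replicates 1 and 2 and CAST/B6 replicates 1 and 2. The difference was 80.4 ± 2.62 points (SD, n = 4), the same direction in both crosses. In limma the estimate was 80.4 with SE 3.85 and adjusted p = 0.027. It was the only Grb10 window called of 17 complete ones, against 0.00503% of all windows. The limits of the Plagl1 call held here too (adjusted p = 0.122 with a mean-dependent, robust variance), and the difference stayed at 79.4 to 81.4 points when single libraries were left out.

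In epiblast the Grb10 DMR could not be compared between alleles in replicates. The paternal allele was low in all 4 epiblast libraries, at 5, 0, 9.09 and 3.79% in the window at chr11:12025760-12026238 and at 2.08, 0, 5 and 3.85% in the window at chr11:12026239-12026499. The maternal allele had 1 value in the first of these windows, 80.0% in CAST/B6 replicate 1, and none in the second. In the window at chr11:12026503-12030208 it had 1 value, 95.8% in B6/CAST replicate 2, while the paternal allele was at 13.7% in B6/CAST replicate 1 and 16.7% in CAST/B6 replicate 1. The single library with both alleles in a dense window differed by 70.9 points.

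On its downstream side the Grb10 DMR was followed by a partly separated window, chr11:12023325-12025759, with a difference of 60.5 points in 2 ExE libraries. On its upstream side chr11:12030209-12036034 differed by 36.9 points in 3 ExE libraries. The gene body then kept a maternal excess over a long stretch. Across the 7 windows at chr11:11967555-12023323 within Grb10 the ExE differences were 12.3 to 31.6 points, with a median of 27.5. The maternal allele was higher in all 4 ExE libraries at 6 of the 7, against 6.32% of all windows. In epiblast the 6 complete windows of that stretch differed by 2.23 to 24.3 points, with a median of 12.5. Of them, 2 were higher on the maternal allele in every library, against 5.75% of all windows. The stretch was not among the windows planned to be named, so its counts only describe it.

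The largest gene body difference in ExE was at chr11:11995671-12006129, which holds no exon. There the maternal allele was at 68.8, 76.3, 78.1 and 83.3% and the paternal allele at 56.7, 23.1, 36.0 and 64.5%, a difference of 31.6 points. In epiblast it was at chr11:11972670-11981951, where the maternal values were 90.5, 84.2, 50 and 80.8%, the paternal values 63.3, 38.7, 43.8 and 62.5% and the difference 24.3 points. In ExE that window differed by 30.1 points. None of these passed the test over all windows (adjusted p = 0.777 in ExE and 0.941 in epiblast). The next 4 windows toward the 3′ end, at chr11:11945851-11967554, differed by 7.46 to 17.5 points in ExE. Of them, 3 were higher on the maternal allele in all 4 libraries, against 6.32% of all windows. Among windows complete in all 4 libraries the lowest ExE difference, -3.71 points, was closer to the end, at chr11:11935331-11939658. The lowest such epiblast difference was -5.72 points, at chr11:11955667-11962332.

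Over all complete Grb10 windows the median difference was 17.5 points in ExE (n = 17) and 3.20 in epiblast (n = 13). The maternal allele was higher in every library at 10 of 17 windows in ExE and at 3 of 13 in epiblast, with the opposite at 0 and 1 windows. The shares of all windows are those given for Plagl1, 6.32% and 5.75%, and 6.27% and 6% for the opposite. With at least 30 points on average, 3 of 17 met the rule in ExE and 0 of 13 in epiblast, against 0.0242% and 0.018% of all windows. Whether the parental difference itself differed between tissues was tested in 12 Grb10 and 14 Plagl1 windows with both alleles in all 8 libraries. At an adjusted p under 0.05, 0% of 237650 windows were called, 12567 were under an unadjusted p of 0.05, and of these 2 were Grb10 and 1 Plagl1. The lowest adjusted p in either locus was 0.932. In the epiblast fit, in which 0.00629% of all windows were called higher on the maternal allele, 0 of 14 Plagl1 and 0 of 13 Grb10 windows were called, with 4 and 5 under an unadjusted p of 0.05, as 11608 of 238529 windows were. Strain, the other term of the fits, called 0 windows of either locus or of all windows in either tissue, with 27808 of all windows in ExE and 15868 in epiblast under an unadjusted p of 0.05.

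By the same 30-point rule the Grb10 DMR in ExE was chr11:12026503-12030208 (3706 bp), with the gene body windows at chr11:11972670-11981951 and chr11:11995671-12006129 apart from it. With windows measured in at least 2 libraries it was chr11:12026239-12036034 (9796 bp, 3 windows) and chr11:12023325-12025759 (2435 bp), which left the 479 bp window between them as the only gap, for want of a second library with both alleles. At 50 points these 2 stretches were chr11:12026239-12030208 and chr11:12023325-12025759. The upstream bound therefore lay at the main promoter island in the first case and some 6 kilobases short of it in the second. In epiblast no Grb10 window met the 30-point rule.

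**Figure D2:**
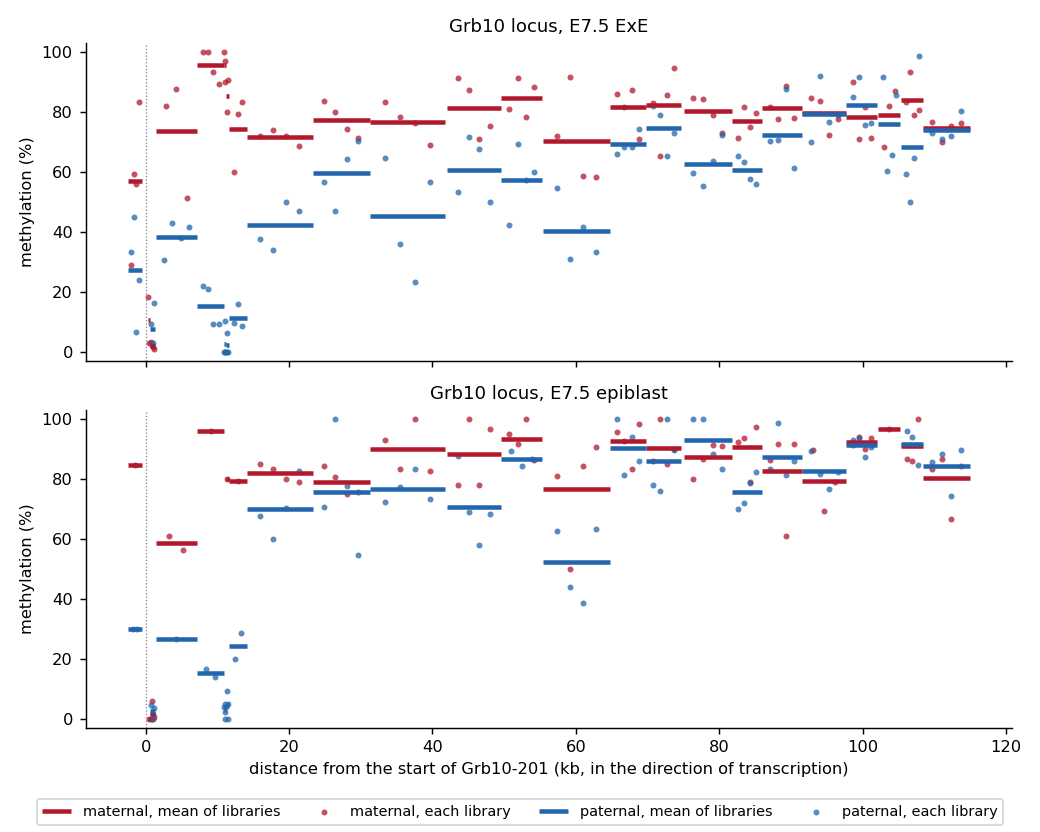
Methylation of the maternal (red) and paternal (blue) allele at E7.5 in windows of the Grb10 locus, with ExE above and epiblast below, against the distance from the start of Grb10-201 in kb along the direction of transcription. Bars span a window at the mean of its libraries and points are single libraries. The alleles are both low at the main promoter, separate most about 11 kb downstream (95.6 points in the shortest window in ExE), and in ExE the maternal bars stay above the paternal ones over most of the gene body.

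The main promoter island of Grb10 was little methylated on both alleles. In the window at chr11:12036038-12036850 (813 bp) the maternal allele in epiblast was at 0.355, 0, 5.88 and 0% and the paternal allele at 3.51, 1.67, 0 and 4.55%, a difference of -0.871 ± 4.65 points (SD, n = 4). In ExE the maternal values were 0.703, 1.67 and 3.22% in 3 libraries and the paternal values 16.1, 2.96, 2.17 and 9.35% in all 4. The paternal allele was the higher in the 3 libraries with both, by -7.60 ± 7.15 points (SD, n = 3) as maternal minus paternal (exact sign-flip p = 0.25, the smallest that 3 libraries allow). The other 3 dense windows of the island had few allele values, and with all reads the 4 windows ranged from 0 to 12.4%. Just before it, at chr11:12037863-12039920 with the start of Grb10-206, the maternal allele in ExE was at 83.3, 55.9, 59.1 and 28.8% and the paternal allele at 23.8, 6.52, 45.0 and 33.3%. The difference was 29.6 ± 30 points (adjusted p = 0.777), and the alleles overlapped. The upstream Plagl1 promoter, in the dense window at chr10:13060757-13061736 beside the start of Plagl1-225, was low on both alleles as well. Its maternal values were 5.58 to 26.4% in ExE and 4.4 to 16.7% in epiblast, and its paternal values 3.82 to 18.5% and 0.741 to 15.0%.

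With all reads, ExE was less methylated than epiblast over most of both genes at E7.5, and the windows of the DMRs were not called. In limma 13 of 17 Plagl1 windows and 17 of 26 Grb10 windows were lower in ExE, against 82.9% of all windows, and the median difference was -13.3 points at Plagl1 and -9.95 at Grb10 against -16.5 over all windows. The 3 Plagl1 windows that were not called in either direction were neighbours, chr10:13086357-13090457 and the 2 DMR windows. The 9 Grb10 windows that were not called were also neighbours and ran from the DMR window at chr11:12025760-12026238 through the main promoter to the end at chr11:12039920. The upstream Plagl1 promoter window was the only member higher in ExE (1.3% of all windows were), at 13.7, 11.7, 16.7 and 13.5% against 8.47, 7.31, 7.25 and 9.17% in epiblast, an estimate of 5.83 points with SE 2.03 and adjusted p = 0.0241.

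The mean of the Plagl1 DMR windows at E7.5 was 33.0, 36.0, 35.1 and 40.7% in ExE and 38.7, 48.9, 56.5 and 43.4% in epiblast. The highest ExE library, CAST/B6 replicate 2, lay within the epiblast range, and the difference of -10.7 points gave p = 0.0571 in an exact permutation test. The Grb10 DMR was at 34.5, 26.7, 44.1 and 22.2% in ExE and at 14.1, 31.9, 17.4 and 48.6% in epiblast, with the tissues fully mixed (a difference of 3.89 points, exact permutation p = 0.686). The main Grb10 island was at 3.21, 4.50, 5.78 and 6.76% in ExE and at 1.44, 2.38, 2.03 and 2.22% in epiblast. Every ExE library was above every epiblast library, and the difference of 3.04 points had the smallest exact permutation p that 4 against 4 allow, 0.0286.

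With each library's mean over all windows subtracted, so that the lower level of ExE as a whole was taken out, 0 windows of either locus were called lower in ExE at E7.5, against 19% of all windows. Called higher were 3 of 17 Plagl1 and 9 of 26 Grb10 windows, against 20.8% of all. The Plagl1 DMR was then 5.66 points higher in ExE (exact permutation p = 0.286), where the deposited percentages put it lower, so its direction depended on the scale.

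At E6.5 the same tissue comparison had fewer complete windows. In limma 7 of 15 Plagl1 and 9 of 14 Grb10 windows were lower in ExE, against 59.6% of all windows, and none was higher. Without B6/CAST ExE replicate 2 there were 3 at each locus (48.2% of all windows), and without B6/CAST ExE replicate 1 there were 4 at Plagl1 (48.4%). Without the B6/CAST epiblast library of unmatched number there were 5 at Grb10 (53.0%). With library means subtracted 0 were lower and 2 and 1 higher, against 6.19% of all windows lower and 8.73% higher, and the Plagl1 DMR was 5.30 points higher in ExE. At the Plagl1 DMR, wild-type epiblast libraries ranged from 45.7 to 71.7% with a mean of 57.7% (n = 6), and wild-type ExE libraries were at 53.3, 54.6, 56.2 and 21.6%. The ranges overlapped, and the difference of -11.3 points gave an exact permutation p of 0.257. Without CAST/B6 ExE replicate 2, the lowest library, it was -2.98 points. At the Grb10 DMR the only window with a value in all 10 libraries, chr11:12025125-12025933, was at 27.4 to 75% in epiblast (mean 59.4%) and at 92.9, 21.6, 16.7 and 28.6% in ExE, a difference of -19.5 points (exact permutation p = 0.238). That value rests on the highest ExE library, B6/CAST replicate 1, without which it was -37.1 points (exact permutation p = 0.0476).

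The levels of the DMRs on both days, with all reads, are given side by side. The Plagl1 DMR was at 58.3 and 57% in B6/CAST and CAST/B6 epiblast at E6.5 and at 43.8 and 49.9% at E7.5, and in ExE at 53.9 and 38.9% and then 34.5 and 37.9%. The Grb10 DMR was at 65 and 58.5% in epiblast at E6.5 and at 23.0 and 33.0% at E7.5, and in ExE at 47.9 and 41.9% and then 30.6 and 33.1%. Day, pooling, chromatin digestion and window grid differed together between these tables, so they cannot be told apart and no test was made.

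**Figure D3:**
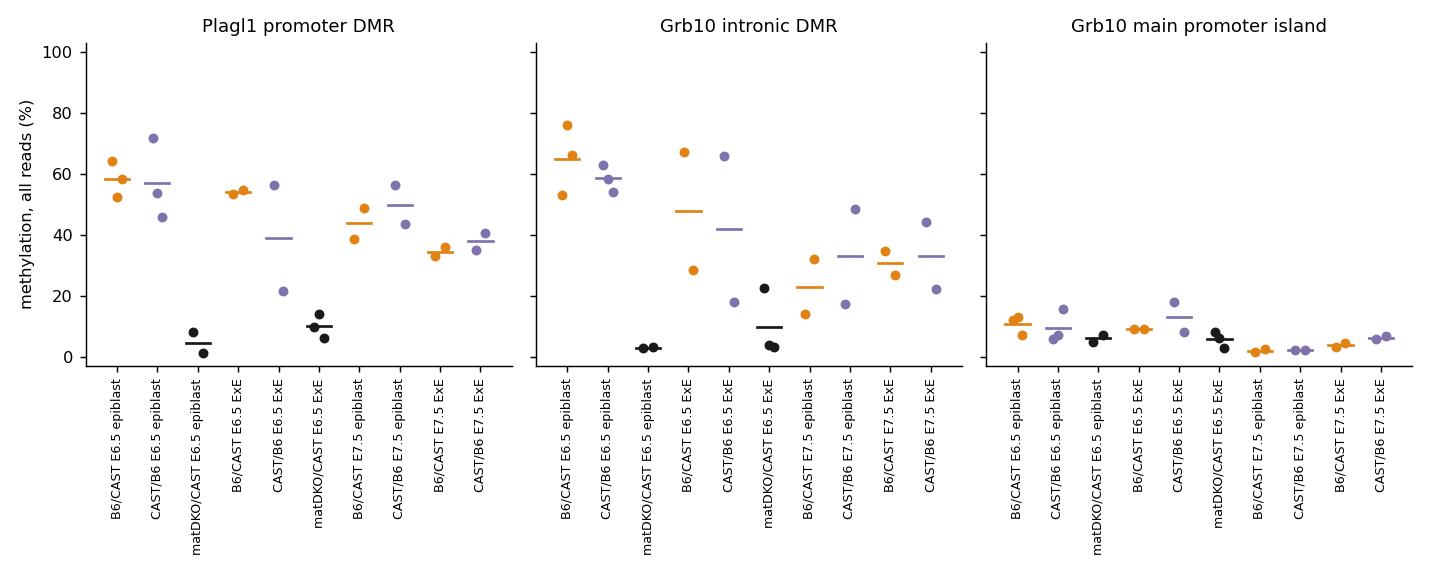
Methylation with all reads at the Plagl1 promoter DMR, the Grb10 intronic DMR and the main Grb10 promoter island in each group. Points are libraries (the mean of the dense windows, or peak windows for Plagl1, that the library has a value for) and lines are group means. Both DMRs are lowest in matDKO/CAST (means of 2.96 to 10.0%), and the main Grb10 island is low in every group.

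The reciprocal crosses at E6.5 had no separate allele values available and were compared with all reads. At the Plagl1 DMR, B6/CAST epiblast libraries were at 64.1, 52.4 and 58.4% and CAST/B6 libraries at 71.7, 53.7 and 45.7%, a mean difference of -1.28 points with the crosses interleaved (exact permutation p = 1). In ExE the B6/CAST libraries were at 53.3 and 54.6% and the CAST/B6 libraries at 56.2 and 21.6%. At the Grb10 DMR the crosses differed by -10.9 points in epiblast (exact permutation p = 0.7). This is from chr11:12025125-12025933 alone, the only DMR window complete in the libraries compared. In ExE they differed by -5.95 points over 3 windows (exact permutation p = 0.667). Leaving out single libraries turned the sign of both Grb10 differences. They ranged over -20.2 to 2.34 points in epiblast (positive without CAST/B6 replicate 2). In ExE they ranged over -30.0 to 18.1 (positive without B6/CAST replicate 1 or CAST/B6 replicate 2). The Plagl1 differences turned likewise, over -8.60 to 4.38 points in epiblast and -32.3 to 2.28 in ExE, the latter without CAST/B6 replicate 2. CAST/B6 libraries were more methylated over all windows, by a median of 8.00 points in epiblast and 11.5 in ExE. In limma 0 windows of either locus were called between crosses, as 0% of 192419 windows in epiblast and 0% of 254322 in ExE were. With a mean-dependent, robust variance 2 windows of all were called in ExE. Under an unadjusted p of 0.05 were 27360 and 59327 of all windows, with 0 Plagl1 and 1 Grb10 windows among them in epiblast and 8 and 1 in ExE.

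At the flank before the Plagl1 promoter, chr10:13087530-13090686, the B6/CAST epiblast libraries were at 49.5, 55.9 and 50.8% and the CAST/B6 libraries at 83.3, 84.0 and 86.2%. In ExE it was at 54.4 and 40.2% in B6/CAST and at 96.0 and 75% in CAST/B6. The crosses did not overlap in either tissue, as at some other windows of both loci, among them chr10:13107187-13112258. At E7.5 the window overlapping it, chr10:13086357-13090457, had the crosses mixed, at 65.1 and 51.3% in B6/CAST and 55.5 and 58.9% in CAST/B6 epiblast and at 55.3 and 66.0% and 64.7 and 63.7% in ExE. This window was not in the epiblast fit, because both matDKO/CAST libraries lacked a value, and in ExE the estimate was 38.2 points with adjusted p = 0.126. The window was chosen by its place beside the DMR. How many of all windows kept the crosses apart in this way was not counted. At E6.5 CAST/B6 was higher over all windows, by medians of 8.00 points in epiblast and 11.5 in ExE.

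Methylation of both DMRs was nearly absent in epiblast of embryos from mothers that lacked oocyte Dnmt3a and Dnmt3b. At the Plagl1 promoter window chr10:13090695-13091188 (494 bp, with 21 of the annotated starts), B6/CAST epiblast was at 60.2, 61.1 and 29.8%, CAST/B6 at 82.0, 62.4 and 21.7%, and matDKO/CAST at 2.30 and 2.5%. At chr10:13091189-13093629 the values were 68.0, 43.8 and 87.1%, then 61.4, 45.0 and 69.7%, and 13.6 and 0% in matDKO/CAST. Both matDKO/CAST libraries were below every wild-type library in each window, as they were at 47.3% of all windows. Over the DMR the matDKO/CAST mean was 4.61% against 58.3% in B6/CAST, a difference of -53.7 points (exact permutation p = 0.2, the smallest that 2 against 3 allow).

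At the Grb10 DMR the window at chr11:12025125-12025933 (809 bp) was at 61.4, 58.2 and 75% in B6/CAST epiblast, at 63.0, 27.4 and 71.4% in CAST/B6, and at 1.61 and 0% in matDKO/CAST. The difference from B6/CAST was -64.0 points (exact permutation p = 0.2, the smallest possible). In the window at chr11:12025934-12026359 (426 bp, with 4 TGCCGC hexamers and the start of Grb10-209) the matDKO/CAST libraries were at 3.12 and 0%, and wild-type libraries at 36.8 to 93.6%. In the window at chr11:12026360-12026797 they were at 3.91 and 9.09% against 41.7 to 100%. No matDKO/CAST value of the 3 dense windows overlapped a wild-type value. Every matDKO/CAST library was below every wild-type library at 47.3% of all windows.

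In limma 3 of 9 complete Plagl1 windows and 6 of 11 complete Grb10 windows were lower in matDKO/CAST than in B6/CAST epiblast, against 23.4% of all windows. That share fell to 5.43% without the B6/CAST library of unmatched number, with 2 Plagl1 and 4 Grb10 windows called, and to 10.1% without B6/CAST replicate 3, with 3 and 6. It was 12.5 to 14.1% with any 1 of the CAST/B6 libraries left out, which enter the estimate of the spread. The Plagl1 windows were chr10:13091189-13093629 in the DMR (-59.5 points, SE 12.4, adjusted p = 0.0186), the flank after it at chr10:13093630-13101347 (-31.3 points, adjusted p = 0.013), and chr10:13112271-13117782, which holds the starts of Plagl1-208 and Plagl1-222 (-34.0 points, adjusted p = 0.015). The Grb10 windows were chr11:12025125-12025933 in the DMR (-64.0 points, SE 12, adjusted p = 0.0155), the flank between DMR and main promoter at chr11:12026798-12034849 (-36.1 points, adjusted p = 0.0179), and 4 in the gene body or at its end. Those 4 were chr11:11961013-11966755 (-47.3 points), chr11:11983750-11990704 (-32.1), chr11:11926990-11931226 (-29.4) and chr11:11931286-11934189 (-20.0), with adjusted p from 0.0129 to 0.0272. The Plagl1 DMR window was not called without the B6/CAST library of unmatched number (-49.0 points, limma adjusted p = 0.0501). Its difference was -52.6 points without matDKO/CAST replicate 3. The median difference over all windows was -16.4 points. With each library's mean subtracted the DMRs were still lower by 36.8 points at Plagl1 and 47.1 at Grb10, but 0 members were called, as 0 of all 192419 windows were. The same held on the logit scale.

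Every matDKO/CAST library was below every wild-type library at 7 of 9 Plagl1 and 7 of 11 Grb10 windows in epiblast, against 47.3% of all windows. Read as bounds, the run of such windows around the Plagl1 DMR in epiblast was chr10:13090695-13101347 (10653 bp) and that around the Grb10 DMR chr11:12025125-12034849 (9725 bp, 4 windows). Each starts at the first dense window of the DMR and ends with the long window after it. Further such runs lay elsewhere in both loci, so the rule does not single out the DMRs. The window before the Plagl1 DMR could not be read, since it had no matDKO/CAST epiblast value. The window before the Grb10 DMR, chr11:12013905-12025124, had 1 such value, 47.2%, below the 70.5 to 86.6% of the wild type, so this bound too is set by a missing library.

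In ExE the DMRs were also lower in matDKO/CAST, with more spread. The Plagl1 window chr10:13090695-13091188 was at 34.3 and 52.5% in B6/CAST, 22.7 and 4.44% in CAST/B6, and 1.52, 0.847 and 2.27% in matDKO/CAST. The window at chr10:13091189-13093629 was at 72.2 and 56.8%, 89.7 and 38.7%, and 18.2, 27.4 and 10.0%. Every matDKO/CAST library was below every wild-type one in both, as at 42.8% of all windows. The DMR mean was 10.0% against 53.9% in B6/CAST, a difference of -43.9 points (exact permutation p = 0.2, the smallest that 3 against 2 allow).

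The Grb10 DMR was uneven in ExE. At chr11:12025125-12025933 it was at 92.9 and 21.6% in B6/CAST, 16.7 and 28.6% in CAST/B6, and 17.8, 0 and 1.28% in matDKO/CAST. At chr11:12025934-12026359 the values were 29.5 and 21.2%, 100 and 0%, and 21.9, 0.364 and 8.33%. The matDKO/CAST replicate 1 overlapped the wild type in the first window and all 3 matDKO/CAST libraries did in the second, where CAST/B6 replicate 2 was at 0. Over the 3 windows the mean was 9.83% against 47.9%, a difference of -38.0 points (exact permutation p = 0.2), which moved to -18.7 without B6/CAST replicate 1 and to -57.4 without B6/CAST replicate 2. The gene body window before the DMR, chr11:12013905-12025124, separated the groups more clearly, at 59.5 and 56.3%, 84.6 and 55.6%, and 29.0, 15.5 and 0%, with an estimate of -43.0 points (SE 10.7, adjusted p = 0.132).

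No window of either locus was called in ExE at an adjusted p under 0.05, as 0% of 254322 windows were, with 5 of 15 Plagl1 and 7 of 18 Grb10 windows and 65546 of all windows under an unadjusted p of 0.05. With both wild-type crosses as the reference 13 of 15 Plagl1 and 9 of 18 Grb10 windows were called, against 49.0% of all windows. Every matDKO/CAST library was below every wild-type library at 9 of 15 Plagl1 and 10 of 18 Grb10 windows, against 42.8% of all windows. The runs were long, chr10:13061221-13093629 (32409 bp) and chr11:11973406-12025124 (51719 bp), where the second stops at the DMR and does not cover it.

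**Figure D4:**
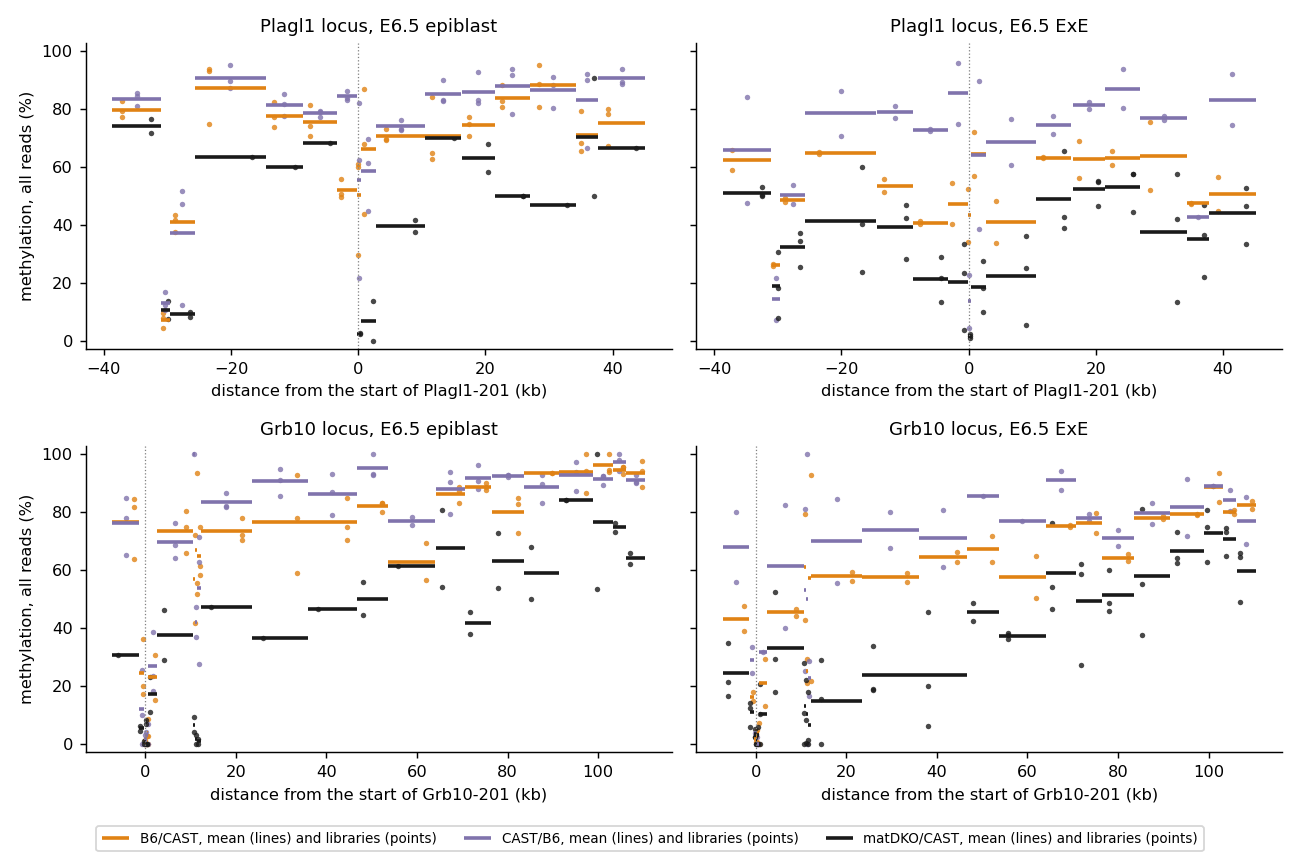
Methylation with all reads at E6.5 in windows of the Plagl1 (upper) and Grb10 (lower) loci, in epiblast (left) and ExE (right), against the distance from the start of Plagl1-201 or Grb10-201 in kb in the direction of transcription. Bars are group means over the span of a window and points are libraries, for B6/CAST (orange), CAST/B6 (purple) and matDKO/CAST (black). The black bars drop to between 0 and 10% at the dense DMR windows in epiblast, and the main Grb10 promoter and the upstream Plagl1 promoter lie below most other windows of their loci in the wild type, at up to 38.6 and 26.5%.

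The promoters outside the DMRs were less methylated at E6.5 than most windows around them. The upstream Plagl1 promoter at chr10:13059854-13061193 was at 4.55 to 16.7% in wild-type epiblast and at 7.58 and 13.8% in matDKO/CAST epiblast. In ExE it was at 26.0 and 26.5% in B6/CAST, 7.14 and 21.8% in CAST/B6, and 18.1, 7.95 and 30.8% in matDKO/CAST, with the groups mixed. The first of its flanks, chr10:13061221-13065109, was at 12.5 to 51.7% in wild-type epiblast and at 8.33 and 10.0% in matDKO/CAST (an estimate of -31.8 points, adjusted p = 0.0597). The 3 shortest windows of the main Grb10 island were at 0 to 8.62% in every library with a value, in both tissues and all crosses. The 2 longer windows at its ends were higher, up to 38.6% at chr11:12034875-12036706 and up to 36.4% at chr11:12037700-12038757. At the second of these B6/CAST epiblast was at 17.1, 36.4 and 19.9%, CAST/B6 at 0, 10.1 and 25.5%, and matDKO/CAST at 4.35 and 6.25%. The CAST/B6 libraries overlapped matDKO/CAST there. Over the whole island matDKO/CAST was at 6.06 ± 1.62% (SD, n = 2) in epiblast and 5.69 ± 2.57% (n = 3) in ExE, and B6/CAST at 10.7 ± 3.21% (n = 3) and 9.10 ± 0.00568% (n = 2).

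The DMRs were set beside 14 other regions that the study lists as overlapping a maternal germline DMR, each by its window of largest mean parental difference with at least 2 libraries. In ExE these ranged from 47.4 to 93.6 points with a median of 85.7. The Plagl1 value of 85.3 lay near that median and the Grb10 value of 95.6, from 3 libraries, above the highest. In epiblast they ranged from 44.9 to 95.1 with a median of 89.5, and Plagl1 was at 92.3. The order rests on windows that lack libraries and on unlike numbers of windows. The largest value was taken over 17 Plagl1 and 26 Grb10 windows, but over 1 to 13 windows in each other region. The lowest matDKO/CAST differences below come from unlike numbers of windows too. Over windows with both alleles in every library Grb10 was at 80.4 and Plagl1 at 85.3 in ExE, beside 32.4 to 93.6 (median 83.2) in the other regions. In epiblast, where neither DMR had such a window, Plagl1 was at 35.8, from the flank before the DMR, and Grb10 at 24.3, from the gene body window at chr11:11972670-11981951, beside 9.34 to 95.1 (median 85.0). The lowest matDKO/CAST minus B6/CAST difference of a window in the other regions was -66.5 to -24.8 points in ExE (median -45.7) and -72.7 to -22.1 in epiblast (median -46.2, 11 regions with a value), beside -46.0 and -59.5 for Plagl1 and -50.9 and -65.4 for Grb10. Without B6/CAST replicate 1 the Grb10 value in ExE was -15.3, and without B6/CAST replicate 2 it was -86.5. The regions were chosen by the study with data of these embryos, and nothing particular to Plagl1 or Grb10 was tested here.

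**Figure D5:**
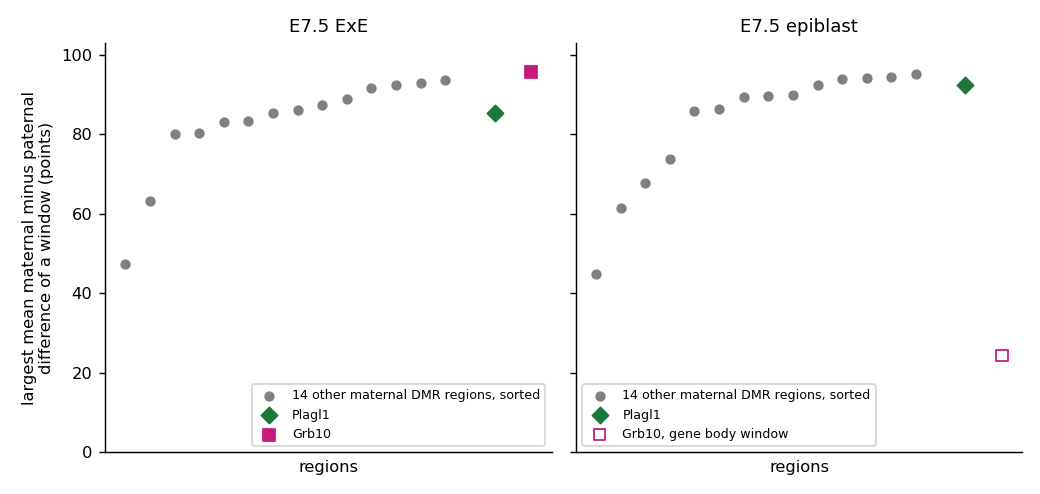
Largest mean maternal minus paternal difference of a window, in points, at 14 other maternal DMR regions (grey, sorted) and at Plagl1 (green) and Grb10 (pink), in E7.5 ExE (left) and epiblast (right), for windows with both alleles in at least 2 libraries. Plagl1 (85.3 and 92.3) lies within the range of the others, and Grb10 is at 95.6 in ExE. The open square in epiblast (24.3) is a Grb10 gene body window, since no window of the Grb10 DMR had both alleles in more than 1 library there.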

How the data were processed

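The deposited tables give percent methylation per window, which the authors made from PBAT reads. Per the labels, reads were trimmed with Trim Galore 0.4.4 and aligned to GRCm38 with Bismark 0.20.0, and the study's methods assign E7.5 reads to alleles by strain polymorphisms. The tables hold 15 E6.5 and 8 E7.5 libraries, with no read counts, so the precision of a value is unknown. A percentage from few reads moves in large steps. Dense windows of both loci lacked allele values in some libraries, for a reason that was not tested.

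Samples were grouped by GEO's labels. The percentages were fitted over all autosomal windows with a value in every library of the comparison, in limma 3.58.1 with R 4.3.3, with cross as a term, and called at a Benjamini-Hochberg adjusted p under 0.05. Tested on simulated data in which few windows were shifted, the fits returned the size of the shifts put in, and the parental, cross and matDKO/CAST fits called very large shifts, though not all of them, but no moderate ones. Between matDKO/CAST and B6/CAST epiblast, member differences of as little as -20.0 points were called, while in ExE no window was. The cause of this was not tested. A window that was not called may still differ. Block means (DMRs, main island) were compared by two-sided exact permutation or sign-flip tests, over the windows complete in the libraries compared, or otherwise over each library's own windows. Python 3.11.15, pandas 2.3.3 and scipy 1.17.1 were used.

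Dense windows are at most 2000 bp, joined into blocks over gaps of at most 1000 bp. Named with values are the Plagl1 windows with midpoint in the promoter peak, the Grb10 dense windows, the first window on each side of these, all windows called in the parental or matDKO/CAST fits, and the windows of highest and lowest parental difference. The upstream Plagl1 promoter windows and the largest gene body differences were also named, after their values were seen. The members and lists were chosen with earlier results of these data known. Alternatives were a logit scale held between 1 and 99%, library means subtracted, other variance settings, block definitions and bounds, a replicate block, missing libraries kept, both crosses as wild type, and leaving out each library.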

Additional observations from a re-analysis of the deposited data

Results flagged for a closer look

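In 14 groups of 4 to 10 libraries the highest or lowest library was tested for its gap to the nearest one with Dixon's criterion, which chance alone passes in about 1 of 20 groups. It was passed in 3 groups, all at E6.5. The Plagl1 DMR of wild-type ExE was at 21.6% in CAST/B6 replicate 2, against 53.3 to 56.2% in the other 3 libraries. The Grb10 DMR window at chr11:12025125-12025933 was at 92.9% in B6/CAST replicate 1 of wild-type ExE, against 16.7 to 28.6% in the other 3. In wild-type epiblast the same window was at 27.4% in the second CAST/B6 library, against 58.2 to 75% in the other 5. The number of reads behind these percentages is unknown, and its part in them was not tested.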

How the results depend on the processing

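Of the values under alternatives for the block levels, counts of called windows and bounds, 252 stayed close to those reported, 57 moved, 2 newly passed the test and none reversed a called direction. Of those for single windows, 217 stayed, 13 moved, 49 lost their call and 1 gained it. The cause of the changes below was not tested.

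With every window that overlaps the peak, the Plagl1 parental difference was 49.3 points in ExE and 32.6 in epiblast, the E7.5 tissue difference -7.77 (exact permutation p = 0.0286) and the ExE matDKO/CAST difference -38.3. With the shortest such window the ExE parental difference was 95.1, from a single library, and the epiblast matDKO/CAST difference -48.0. With windows of up to 3000 bp the Grb10 parental difference in ExE was 82.3. With library means subtracted, the Plagl1 tissue difference was 5.66 points at E7.5 and 5.30 at E6.5, and the matDKO/CAST difference -36.8 (epiblast) and -31.9 (ExE) at Plagl1 and -47.1 (epiblast) at Grb10. With both crosses as wild type the Plagl1 ExE difference was -36.4 (exact permutation p = 0.0571).

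Leaving out single libraries gave -37.1 (exact permutation p = 0.0476) to -11.7 points for the Grb10 tissue difference at E6.5 and -57.4 to -18.7 for its ExE matDKO/CAST difference. It left 0 to 0 windows of each locus called in the ExE parental fit, 3 to 8 (Plagl1) and 3 to 9 (Grb10) in the E6.5 tissue fit, and 2 to 5 Plagl1 windows in the epiblast matDKO/CAST fit. The lowest E6.5 tissue counts, 3 at each locus, were those without B6/CAST ExE replicate 2 (48.2% of all windows). Without CAST/B6 epiblast replicate 3 there were 5 Plagl1 matDKO/CAST calls, while the share of all windows was 13.3%.

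In the ExE parental fit 0 windows of either locus were called with a mean-dependent, robust variance, with the replicate block or with missing libraries kept, and 0 of all windows were. With library means subtracted 0 windows of either locus were called lower in the tissue fits of E7.5 and E6.5 and in the epiblast matDKO/CAST fit, against 19, 6.19 and 0% of all windows. Called higher were 3 Plagl1 and 9 Grb10 windows at E7.5 (20.8% of all) and 2 and 1 at E6.5 (8.73%). In the E6.5 tissue fit Plagl1 had 3 calls on the logit scale (53.4% of all windows), 4 without the cross term (46.4%) and 1 with the replicate block (21.2%), and Grb10 1 with the replicate block. In the epiblast matDKO/CAST fit 0 windows of either locus were called on the logit scale or with the replicate block, as 0 of all windows were, and at Plagl1 5 with the robust variance (25.3% of all) and 6 with both crosses (53.0%). With both crosses 13 of 15 (Plagl1) and 9 of 18 (Grb10) windows were called in ExE, against 49.0% of all windows. The summed bounds of Plagl1 were 11555 bp (ExE) and 10584 bp (epiblast) at 20 points, 971 and 0 bp at 50, and 5072 bp in epiblast with missing libraries kept, with which Grb10 had 12231 bp in ExE.

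The study separated the epiblast and ExE of each embryo, and whether libraries with the same number share embryos is not given. Such libraries deviated together little (correlations -0.0279 to 0.0506). With as few as 2 libraries in a group this cannot show whether they share embryos, so the replicate block is kept as an alternative only. The epiblast parental difference could not be fitted for the shortest Plagl1 window, nor at Grb10 with the replicate block or without CAST/B6 replicate 1. Single-allele values in the dense windows, and the lack of read counts, set the limit of what can be said of the epiblast DMRs.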
